A study of Mus musculus with 2 samples.

Results

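The mitochondrial genome was examined along its whole length in ChIP-seq libraries of GPS2, a subunit of nuclear receptor corepressor complexes. Its 326 non-overlapping bins of 50 bp from position 1 to 16299 (the last bin holds 49 bp) were taken by position alone, so no read count entered their choice. They compare with 6592092 bins of the same width that held at least 1 read on the nuclear chromosomes. The libraries came from 3T3-L1, an established line of mouse fat cell precursors that hormones can drive to become adipocytes. There was 1 library from day 0 and 1 from day 6 of induced adipogenesis, both with rabbit antibodies against peptides of GPS2. The labels name no replicates. Neither an input nor a control immunoprecipitation was analysed here. The antibodies were raised against either end of the protein, and the sources used here do not say which was taken on which day. Apart from the day, the labels give the same line and the same description of the antibodies for both groups.

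Mitochondrial DNA is a small circle present in many copies per cell. It carries genes for ribosomal RNAs, transfer RNAs and subunits of the respiratory chain and ATP synthase, packed with almost no spacers. Its main non-coding part, the control region, holds the promoters and an origin of replication, and often an extra short strand of DNA that forms the D-loop. The linear reference cuts the circle at the border between the control region and TrnF, the gene of the phenylalanine tRNA. Nuclear genomes also carry old copies of mitochondrial DNA. GPS2 is a nuclear and cytoplasmic protein that has also been described at mitochondria. Without an input, mitochondrial DNA carried along in the immunoprecipitate cannot be told from DNA bound by GPS2.

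The libraries held 4258133 aligned reads at day 0 and 3543507 at day 6, in the build mm8. Of these, 10602 reads (0.249%) and 12566 reads (0.355%) lay on the mitochondrial genome, and no window of either deposited list lay there. Each position held at most 1 read start per strand, which caps a bin at 50 starts per strand. A plus-strand start cannot lie in the last 35 positions nor a minus-strand start in the first 35, because reads of 36 bases do not cross the cut. All intervals below are exact 95% intervals that cover counting error only, and no test between days was made, since each day has 1 library. The difference between days cannot be told apart from a difference between cultures, immunoprecipitations or antibodies.

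The mitochondrial reads lay unevenly on the strands, and the imbalance was much larger at day 0. At day 0 the plus strand held 2921 starts and the minus strand 7681, a plus-strand share of 27.6% (26.7 to 28.4). At day 6 the strands held 5848 and 6718 starts, a share of 46.5% (45.7 to 47.4). The nuclear reads of the same libraries had shares of 54.1% and 53.8%. In 266 nuclear segments of 10 Mb with at least 5000 reads at day 0, the share ranged from 48.1% to 65.7% at day 0 and from 50.2% to 65.8% at day 6, so the mitochondrial share lay below this range on both days. Densely read nuclear DNA came closer to it. Among nuclear segments of 500 bp with at least 150 reads, 2 of 149 lay below the mitochondrial share at day 0 and 51 of 161 at day 6, with medians of 46.1% and 49.5%. The chromosome 1 stretch described below, with plus-strand shares of 85.8% and 74.8%, is dense enough to count among these segments.

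The plus strand carried nearly all of the difference between the days. Relative to all reads of the library, plus-strand starts were higher at day 6 by a ratio of 2.41 (2.30 to 2.52). Minus-strand starts had a ratio of 1.05 (1.02 to 1.09), and both strands together 1.42 (1.39 to 1.46). In the 266 nuclear segments the ratio ranged from 0.825 to 1.22 with a median of 0.976. The strands also differed in how full they were. At day 0, 18.0% of the 16264 open plus-strand positions held a read against 47.2% on the minus strand. At day 6 the values were 36.0% and 41.3%. A correction for positions already filled, made for each strand and bin, gave ratios of 2.89 for the plus strand and 0.980 for the minus strand, and 1.39 for both together. The minus-strand ratio thus moved from just above to just below 1 with the correction, and the plus-strand ratio moved further from 1.

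**Figure D1:**
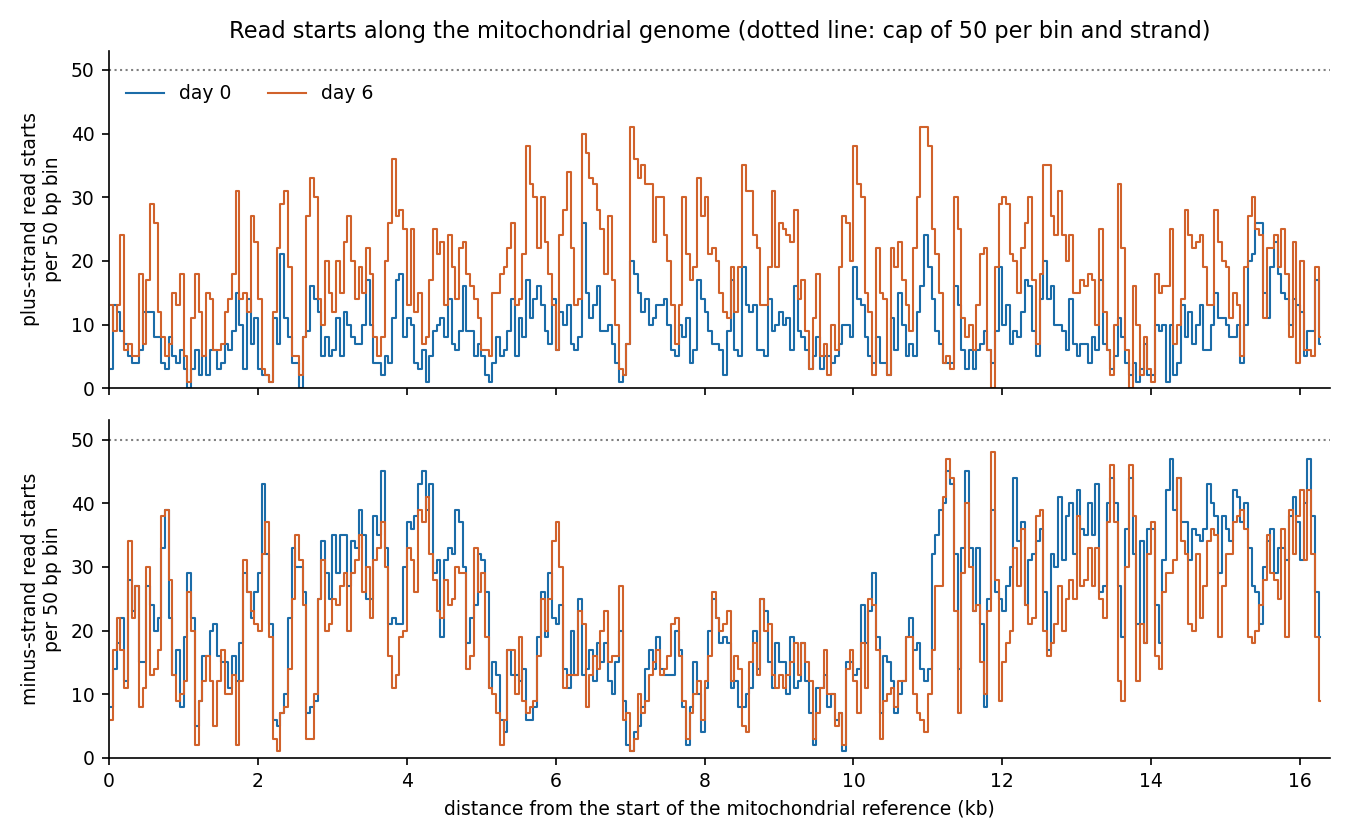
Read starts per 50 bp bin (vertical axis) against the distance from the start of the mitochondrial reference in kb, with the plus strand above, the minus strand below, day 0 in blue and day 6 in orange, 1 library each. The dotted line is the cap of 50 starts. Plus-strand starts are higher at day 6 along most of the circle and differ less between the days at its right end. Minus-strand starts are sparse between about 5 and 11 kb on both days.

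Every bin held reads on both days. The bins held 7 to 57 reads at day 0 (median 31.5) and 8 to 63 at day 6 (median 40). On the plus strand the medians were 8 and 18 starts, with 2 empty bins at each day and none empty at both. On the minus strand they were 22 and 20, with no empty bin. No bin reached the cap on a single strand, although the fullest minus-strand bins held 47 and 48 of 50 positions. Across bins, the coefficient of variation was 35.5% at day 0 and 27.8% at day 6 for the summed strands. This difference was not seen with read starts moved by 90 bp towards the fragment's middle (42.3% and 42.5%), and corrected for filled positions the values were 55.4% and 40.7%. The coefficient was 55.2% and 51.8% for the plus strand and 48.3% and 51.1% for the minus strand.

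The profiles of the days resembled each other. Across the 326 bins the Pearson correlation between the libraries was 0.762 (Spearman 0.757) for both strands, 0.733 (0.753) for the plus strand and 0.881 (0.886) for the minus strand. The plus-strand share of a bin had a correlation of 0.805 (0.809) between the days. These describe bins that share 1 reference sequence, its base composition and the same alignment, and carry no p-value. Within a day the strands ran against each other where read starts were not moved. Their correlation across bins was -0.18 at day 0 and -0.42 at day 6. Bins of 50 bp are narrower than the strand distance given next, and this correlation was not computed with read starts moved by 90 bp. Minus-strand starts lay most often 180 bp after plus-strand starts at day 0 and 173 bp after them at day 6. These distances were sought from 0 to 500 bp in running means over neighbouring distances. At day 0 the running mean there was 1493 pairs per distance. The means were 1303 at distances of 0 to 20 bp and 1376 at 480 to 500 bp. At day 6 the running mean was 2642, against 2105 and 2391, so the preference was slight.

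Single positions recurred between libraries more often than the overall filling, which takes no account of the uneven profile. Across bins the profiles correlated between the days (Pearson 0.733 on the plus strand and 0.881 on the minus strand). Recurrence beyond this shared profile was not tested. Of the 2921 plus-strand positions filled at day 0, 1357 (46.5%) were filled again at day 6, when 36.0% of all open positions were. They were 23.2% of the day 6 plus-strand positions. On the minus strand 4044 positions were filled on both days, 52.6% of those at day 0 and 60.2% of those at day 6. On the plus strand 54.4% of the positions held no start in either library, and on the minus strand 36.3%. The longest run without a start on the plus strand was 71 bp, at positions 1058 to 1128 (from TrnV, the valine tRNA gene, into mt-Rnr2). On the minus strand it was 63 bp, at 9827 to 9889, over TrnR, the arginine tRNA gene between ND3 and ND4L.

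The minus strand fell into dense and sparse blocks, whose borders were set after seeing the profile. From 3001 to 5000, which spans ND1 and ND2, 63.8% of the minus-strand positions were filled at day 0 and 53.7% at day 6. From 11001 to 15250, from the end of ND4 through ND5 and ND6 to CYTB, it was 66.4% and 54.8%. Between these blocks, from 5001 to 11000, only 28.2% and 27.8% were filled, and from 1 to 3000, which holds the ribosomal RNA genes, 40.5% and 35.3%. The plus strand did not follow the order of these blocks. Up to position 15250 it was fullest on both days from 5001 to 11000, where the minus strand was sparsest. Its filling at day 0 was 13.9% from 1 to 3000, 16.8% from 3001 to 5000, 18.9% from 5001 to 11000 and 17.0% from 11001 to 15250. At day 6 it was 27.5%, 36.4%, 41.3% and 34.1%. From 15251 to the end it was 31.0% and 36.0%, so this end held the fullest plus strand at day 0 but not at day 6.

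**Figure D2:**
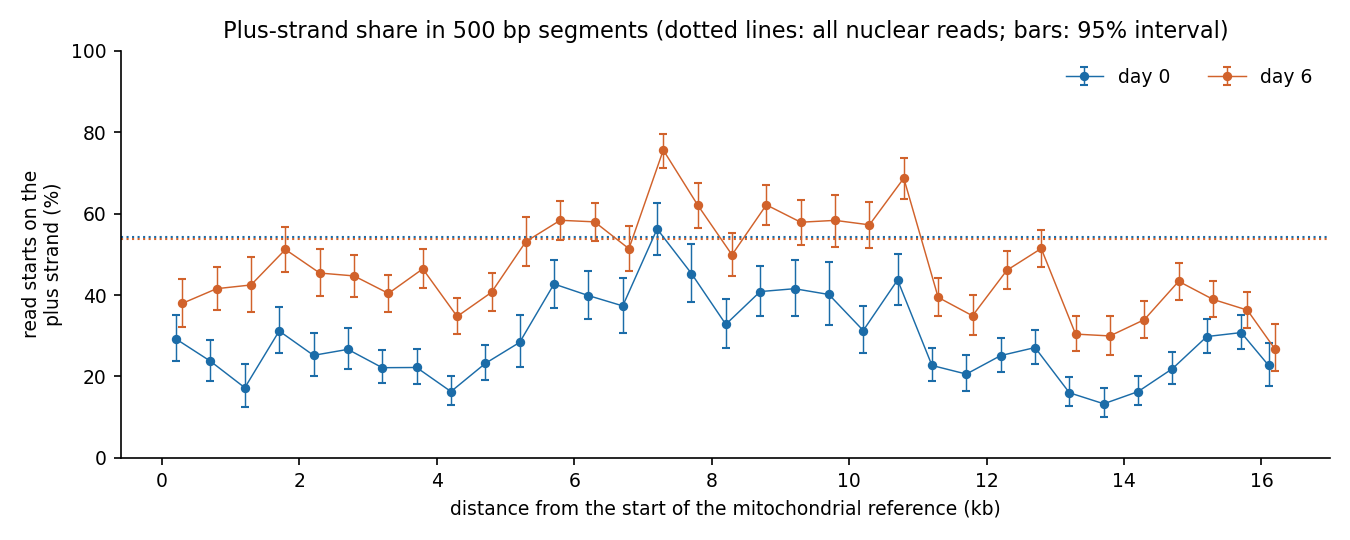
Share of read starts on the plus strand in percent (vertical axis) in 33 segments of 500 bp against the distance from the start of the mitochondrial reference in kb, with day 0 in blue and day 6 in orange. Bars are 95% intervals and the dotted lines mark the nuclear reads of each library (54.1% and 53.8%). The day 6 points lie above the day 0 points in all 33 segments, and both days peak between 7 and 7.5 kb.

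The plus-strand share was higher at day 6 in all 33 segments of 500 bp, and in 30 of them the intervals of the days did not overlap. It ranged from 13.3% to 56.2% at day 0 and from 26.8% to 75.6% at day 6. The lowest share at day 0 lay from 13501 to 14000, in ND5 and ND6, and the highest from 7001 to 7500, in COX2. The latter was the only segment above the nuclear share at day 0. Of single bins, 297 had a higher plus-strand share at day 6 and 29 a lower one, with a median gain of 17.7 percentage points. Of the 29, 6 were among the 17 bins of the control region.

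The control region stood apart from the rest on the plus strand. Its 17 bins, from 15451 to 16299, held 237 plus-strand starts at day 0. At day 6 they held 264, and the ratio was 1.34 (1.12 to 1.60). The other 309 bins held 2684 and 5584 with a ratio of 2.50 (2.39 to 2.62). Corrected for filled positions the ratios were 1.41 and 3.03. With 1 library per day the difference between the control region and the rest was not tested beyond these intervals. The control region's plus-strand bins held 5 to 26 starts at day 0 (median 14) and 4 to 25 at day 6 (median 19). Its median was above that of the other bins at day 0 (8 starts) and close to it at day 6 (18 starts). In 11 of the 17 bins the plus-strand count was higher at day 6 and in 6 lower, against 281 higher, 15 lower and 13 equal among the other 309. On the minus strand the control region had 564 and 508 starts, a ratio of 1.08 (0.958 to 1.22), next to 1.05 (1.01 to 1.08) elsewhere.

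The high plus-strand counts of day 0 began before the control region. The bin from 15301 to 15350, in TrnT, the threonine tRNA gene, held 20 plus-strand starts at day 0 and 27 at day 6. The next bin, which spans TrnT and TrnP, the proline tRNA gene, held 21 and 30. The bin from 15401 to 15450, where TrnP borders the control region, held 26 and 25, and the first full control region bin, from 15451, held 26 and 24. These last bins tied with a bin of COX1 (6351 to 6400, 26 and 40 starts) for the most plus-strand starts at day 0. Of the 10 fullest plus-strand bins of day 0, 5 lay after position 15250, and of the 10 fullest of day 6 none did. The bins from 16051 to 16200 held 5, 9 and 9 plus-strand starts at day 0 and 6, 6 and 5 at day 6.

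**Figure D3:**
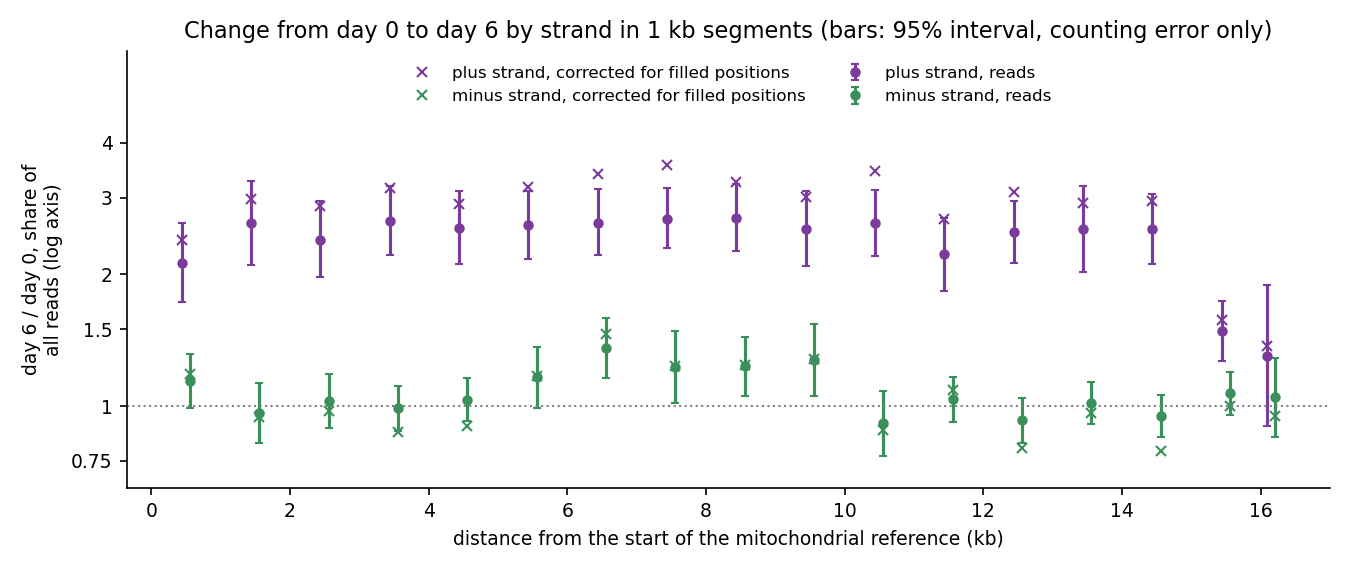
Ratio of day 6 to day 0, each as a share of all reads (vertical log axis), in 17 segments (16 of 1 kb and a last one of 299 bp) against the distance from the start of the mitochondrial reference in kb, with the plus strand in purple and the minus strand in green. Dots are reads with 95% intervals and crosses are corrected for filled positions. Plus-strand dots lie between 2.13 and 2.69 up to 15 kb and drop to 1.48 and 1.30 beyond, while minus-strand dots lie between 0.913 and 1.36.

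Outside that end the plus-strand ratio varied less before correction for filled positions. In the 15 segments of 1 kb up to position 15000 the plus-strand ratio lay between 2.13 and 2.69, and in 16 of all 17 segments its interval lay above 1. It was 1.48 (1.27 to 1.73) from 15001 to 16000 and 1.30 (0.901 to 1.89) in the last 299 bp. Corrected, it ranged more widely in the 15 segments, from 2.39 to 3.55, and was 1.57 and 1.38 beyond them. Segments of 500 bp showed more spread. The first, from 1 to 500, which borders the control region across the cut of the circle, had a ratio of 1.71 (1.26 to 2.33), below the interval of the bins outside the control region. The highest, 3.10 (2.09 to 4.70), lay from 1001 to 1500. The minus-strand ratio had an interval above 1 in 4 segments, which together ran from 6001 to 10000, and below 1 in none. There the ratios were 1.36 (1.16 to 1.59), 1.23 (1.02 to 1.49), 1.23 (1.05 to 1.44) and 1.27 (1.05 to 1.54). These intervals are for reads not corrected for filled positions. Corrected, the minus-strand ratio ranged from 0.791 (14001 to 15000) to 1.46 (6001 to 7000). The former lay below its uncorrected interval of 0.849 to 1.06. The ratio of both strands together was highest from 7001 to 8000, at 1.98, where the minus strand was sparse. It was lowest in the last 299 bp, at 1.10, where the plus-strand ratio was lowest too.

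A bin was called when its share of all reads differed by 2 times or more between the days and the fuller library held 10 reads or more there. By this size rule 44 of the 326 bins were higher at day 6 and 1 was lower, counting both strands. The same rule called 14.6% of 3773 nuclear bins higher and 4.90% lower, so the 13.5% of mitochondrial bins called higher is near the nuclear share at these settings. The 44 bins became 72 corrected for filled positions and 4 when scaled by mitochondrial reads, and 14 bins of 100 bp were called. The nuclear share was not recomputed for these. Each strand gave another picture. Of the 262 bins tested on the plus strand, 212 were higher (80.9%) and 1 lower, against 12.9% and 2.67% of 2025 nuclear bins. Of the 297 bins tested on the minus strand, 4 were higher and 6 lower, against 15.1% and 2.39% of 1632 nuclear bins. The median ratio of the tested bins was 2.60 on the mitochondrial plus strand and 1.29 on the nuclear one, and on the minus strand 1.07 and 1.18. The other 64 and 29 bins had fewer than 10 starts on that strand at both days, and the minimum favours bins that are high in 1 library. The nuclear bins include those of the chromosome 1 stretch described below.

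Gene names were set on the bins from a newer mouse annotation, so borders are approximate. The ribosomal RNA genes, mt-Rnr1 for the small and mt-Rnr2 for the large mitochondrial ribosomal subunit, covered 49 whole bins with 540 reads per kb at day 0 and 620 at day 6. The plus strand held 330 and 648 starts and had a ratio of 2.36 (2.06 to 2.70). The minus strand held 994 and 872 and had 1.05 (0.961 to 1.16). By the size rule on the plus strand, 23 of 31 tested bins were higher, with 80.9% of all tested mitochondrial bins higher, and the rest of the 49 held fewer than 10 starts on both days. Their day 0 plus-strand filling of 13.5% was the lowest among the gene groups.

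The genes of complex I, the NADH dehydrogenase that feeds electrons into the respiratory chain, covered 120 bins with 735 and 821 reads per kb. Their plus-strand ratio was 2.46 and their minus-strand ratio 1.01. On the plus strand 83 of 94 tested bins were higher, again beside 80.9% of all tested mitochondrial bins. Among them ND6, the protein gene encoded on the opposite strand from the others, had the lowest plus-strand share of all genes. It held 33 plus-strand and 276 minus-strand starts at day 0 (10.7%) and 68 and 243 at day 6 (21.9%). ND4L and ND3, which lie in the sparse block, had shares of 44.1% and 33.7% at day 0 and 68.2% and 44.4% at day 6. ND3 was also the thinnest gene, with 297 and 360 reads per kb. Its plus-strand ratio of 1.92 had a wide interval (1.19 to 3.14) from 30 and 48 starts. ND1, ND2 and ND5 lay in the dense blocks, with 788, 829 and 843 reads per kb at day 0, and their plus-strand ratios were 2.41, 2.62 and 2.40.

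CYTB, the only mitochondrial gene of complex III (the cytochrome bc1 complex), was the most densely read gene, with 924 and 967 reads per kb over 22 bins. Its minus strand was the fullest, with 75.2% of positions filled at day 0 and 61.5% at day 6. That strand held 827 starts at day 0 and 676 at day 6, with a ratio of 0.982 (0.886 to 1.09) that the correction for filled positions moved to 0.829. The plus strand held 189 and 388 starts, with a ratio of 2.47 (2.07 to 2.95).

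The genes of complex IV, cytochrome c oxidase, covered 56 bins with 522 reads per kb at day 0 and 794 at day 6. Their 2 strands together had a ratio of 1.83, against 1.34 for complex I and 1.26 for complex III. Both strands contributed, with 2.62 on the plus strand (606 to 1323 starts) and 1.26 on the minus strand (856 to 900 starts). COX1 had a minus-strand ratio of 1.31 (1.15 to 1.48), COX2 1.25 (0.994 to 1.57) and COX3 1.18 (0.976 to 1.43). COX2 had the highest plus-strand share at day 0, with 141 plus-strand and 154 minus-strand starts (47.8%), and 315 and 160 at day 6 (66.3%). ATP6 and ATP8, subunits of ATP synthase (complex V), had a joint ratio of 1.84 over 16 bins, with 2.69 on the plus strand and 1.24 on the minus strand. ATP8 rested on 2 bins alone, with 10 and 36 plus-strand starts. All these genes of complexes IV and V lie in the block from 5001 to 11000 with the sparse minus strand. Over that whole block the ratio of both strands was 1.77. The complex I genes ND4L and ND3 in it had 1.77 and 1.46, and ND4, partly in it, 1.40. Part of the block resembles the chromosome 1 stretch described below. Whether the ratio goes with the gene group or with the place was not tested.

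**Figure D4:**
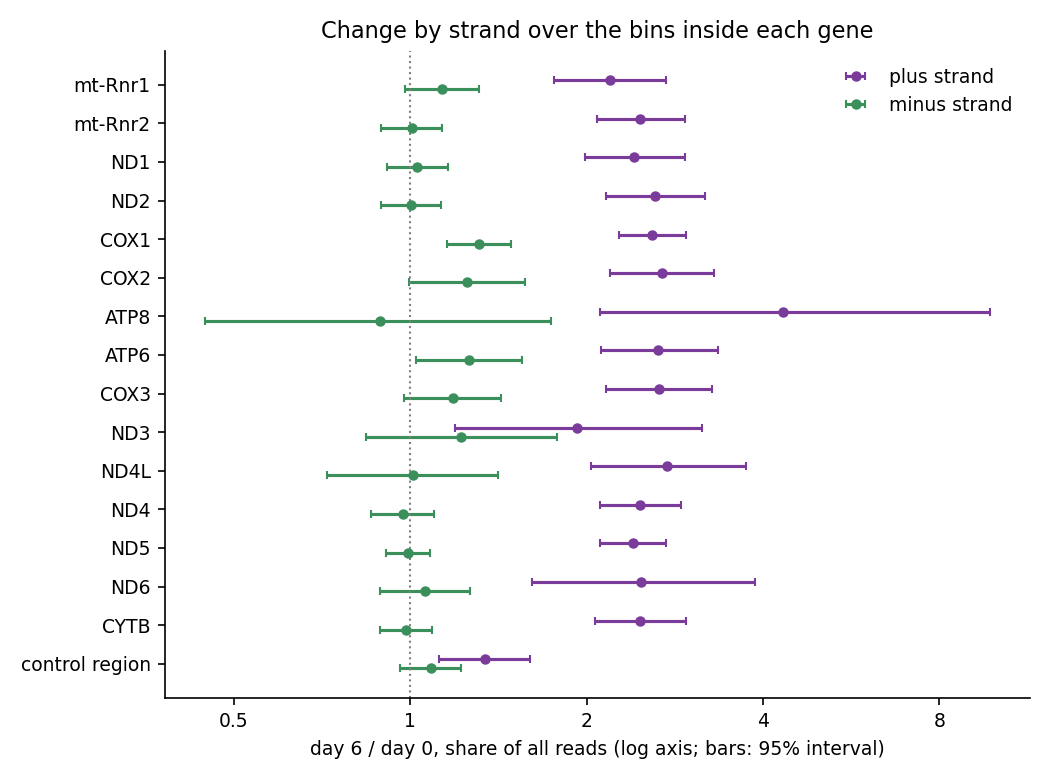
Ratio of day 6 to day 0, each as a share of all reads (horizontal log axis), over the bins inside each gene and the control region, with the plus strand in purple and the minus strand in green and 95% intervals as bars. The plus-strand interval lies above 1 in all 15 genes, the minus-strand interval only in COX1 and ATP6, and the control region has the lowest plus-strand ratio (1.34).

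All 15 genes had a plus-strand interval above 1, and in 14 of them, all but ND3, it lay wholly above the minus-strand interval. The minus-strand interval lay above 1 in COX1 and ATP6 only and below 1 in none, for reads not corrected for filled positions. Corrected, the minus-strand ratios of ND1, ND2 and CYTB were 0.903, 0.863 and 0.829, each below its uncorrected interval. Those of COX1 and ATP6 became 1.38 and 1.29. The corrected ratios have no intervals. Bins that held a tRNA gene or a gene border, 46 in all, had a plus-strand ratio of 2.47 and a minus-strand ratio of 1.01. They held 529 and 648 reads per kb, close to the ribosomal RNA genes.

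Named by rule, the 5 fullest bins of both libraries together lay in the right part of the genome. The bin from 14851 to 14900 in CYTB held 53 reads at day 0 and 63 at day 6, and the one from 14251 to 14300 in CYTB 57 and 54. Those from 15901 to 15950 and from 15751 to 15800 in the control region held 55 and 55, and 48 and 61. The bin from 12751 to 12800 in ND5 held 51 and 58. The minus strand of the CYTB bin from 14251 held 47 of its 50 positions at day 0.

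Of the 5 emptiest bins, all in the sparse block, 4 lay at tRNA genes. The touching bins from 6901 to 7000, over TrnS1 and TrnD (a serine and the aspartate tRNA gene), held 11 and 8 reads and 9 and 14 reads. Those from 9401 to 9500, over TrnG (glycine) and the start of ND3, held 10 and 15 reads and 7 and 14 reads. The fifth, from 9751 to 9800 in ND3, held 11 reads at each day. Next to the first of these gaps the strands parted sharply. From 7001 to 7050, where TrnD meets COX2, the plus strand held 20 starts at day 0 and 41 at day 6 and the minus strand 1 and 1, a plus-strand share of 96.8% over both days. The next bin, in COX2, held 18 and 36 plus-strand and 4 and 3 minus-strand starts.

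Of the other bins with the highest plus-strand share, 2 lay at similar borders and 1 inside a ribosomal RNA gene. The bin from 9851 to 9900, where TrnR meets ND4L, had 92.5%, the bin from 7751 to 7800, where TrnK (lysine) meets ATP8, had 86.5%, and the one inside mt-Rnr2 (2251 to 2300) had 82.9%. At the other extreme, the bin from 1051 to 1100, where TrnV meets mt-Rnr2, held 0 and 1 plus-strand and 29 and 26 minus-strand starts (1.79% plus). The bin from 13701 to 13750 in ND6 held 2 and 0 plus-strand and 44 and 46 minus-strand starts (2.17%). Those from 2551 to 2600 in mt-Rnr2 and from 14001 to 14050 in ND6 had 3.17% and 3.95%, and the one from 11851 to 11900 in ND5 had 4.40%.

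The 312 bins that reached 20 reads on either day had ratios from 0.490 to 3.17, with a median of 1.41. The largest was at 9851 to 9900 (TrnR and ND4L), with 11 reads at day 0 and 29 at day 6 (1.54 to 7.03). It was followed by 8451 to 8500 in ATP6 (13 and 33 reads, ratio 3.05), 5301 to 5350 at TrnY and COX1 (10 and 25, ratio 3.00), 7701 to 7750 in TrnK (16 and 39, ratio 2.93) and 5651 to 5700 in COX1 (17 and 40, ratio 2.83). All of these lay in the block with a sparse minus strand. The smallest ratio, 0.490 (0.219 to 1.02), lay in mt-Rnr2 from 1401 to 1450, with 27 reads at day 0 and 11 at day 6. The minus strand held 21 and 5 of these and the plus strand 6 and 6. The next were 0.747 in ND6 (13851 to 13900, 37 and 23 reads), 0.786 in the last bin of the control region (26 and 17), 0.801 in mt-Rnr1 (451 to 500, 27 and 18) and 0.929 at the border of mt-Rnr1 and TrnV (1001 to 1050, 22 and 17). Chosen as extremes of 312 bins, these ratios may overstate the change.

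A stretch of chromosome 1 held a mirror image of part of the mitochondrial profile. It was found after seeing the data, in a search of 27 nuclear stretches of at least 1500 bp in which touching bins of 250 bp held at least 60 reads over both libraries. Most of the 27 lay close together on chromosome 10, between 116929501 and 117186250. From 24565810 to 24570462 on chromosome 1 (4653 bp, mm8) lay a dense run of reads, while the 5 kb on either side held 7 and 3 reads at day 0 and 3 and 11 at day 6. No window of either list covered it. Turned around, its profile, smoothed over 30 bp, matched the mitochondrial one best at positions 6392 to 11044, from COX1 to ND4, with a correlation of 0.683 between its plus strand and the mitochondrial minus strand and 0.708 between its minus strand and the mitochondrial plus strand. The mean over both strands was 0.696. In the same orientation the best mean correlation was 0.299, and the best mean of any other stretch was 0.585. On a single strand a stretch of chromosome 10 reached 0.686 between its plus strand and the mitochondrial minus strand, with 0.409 for the other strands. Correlations of this kind describe the best of many placements and carry no p-value.

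**Figure D5:**
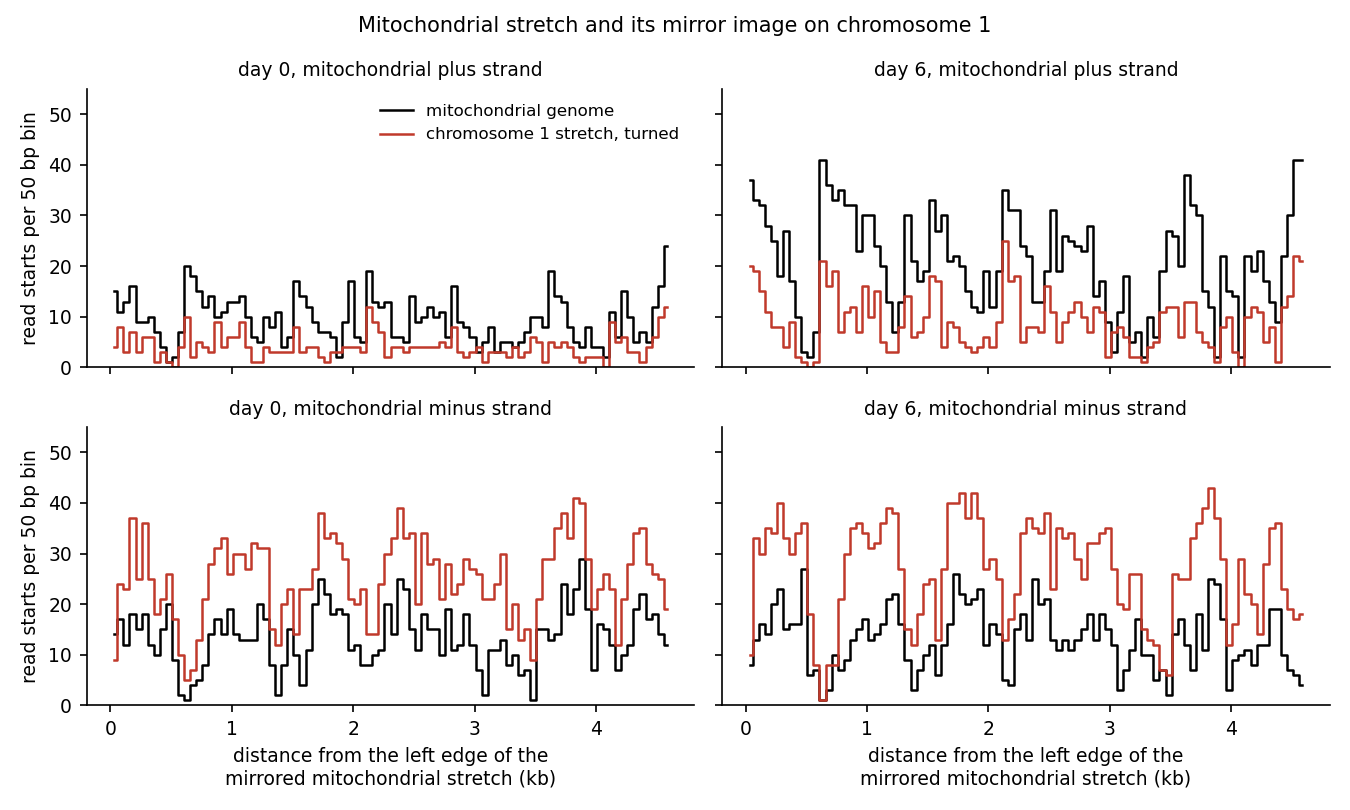
Read starts per 50 bp bin (vertical axis) on the mitochondrial genome (black) and on the chromosome 1 stretch turned around (red), against the distance in kb from the left edge of the mirrored mitochondrial stretch (position 6392), for each mitochondrial strand (rows) and day (columns). Many peaks and dips fall at similar distances on both. In most bins the chromosome 1 reads lie above the mitochondrial ones on the mitochondrial minus strand and below them on the plus strand.

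On the chromosome 1 stretch the strands were uneven in the opposite sense to the genome as a whole. On chromosome 1, 2315 reads lay on the plus strand and 384 on the minus strand at day 0 (85.8% plus, 84.4 to 87.1), and 2486 and 838 at day 6 (74.8%, 73.3 to 76.3). Turned to the mitochondrial orientation, these are mostly minus-strand reads. Inside 6392 to 11044 the mitochondrial genome held 269 minus-strand starts per kb at day 0 and 262 at day 6, against 552 and 472 per kb outside. Adding the turned chromosome 1 reads gave 767 and 796 per kb. The plus-strand starts inside went from 190 and 420 per kb to 273 and 600 per kb. With the reads added, the plus-strand share of this part was 26.3% (25.02 to 27.5) at day 0 and 43.0% (41.8 to 44.2) at day 6, next to 24.05% (23.1 to 24.97) and 41.4% (40.4 to 42.4) outside it. Without them it was 41.4% and 61.6%. Positions filled in both places count in each, so these sums can exceed what a single copy of the sequence could hold under the cap.

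The ratios between the days also differed by strand on chromosome 1. Its minus-strand reads, which correspond to the mitochondrial plus strand, had a ratio of 2.62 (2.32 to 2.97), next to 2.65 (2.45 to 2.87) for the mitochondrial plus strand inside the mirrored part and 2.30 (2.18 to 2.43) outside. Its plus-strand reads had 1.29 (1.22 to 1.37), next to 1.17 (1.08 to 1.26) for the mitochondrial minus strand inside and 1.03 (0.992 to 1.07) outside. Whether single reads came from the mitochondrion or from chromosome 1 cannot be told apart here, since the files used here hold no read sequences and the sources do not say how reads with more than 1 alignment were placed. The sparse minus strand between 5001 and 6392 and from 1 to 3000 lies outside the mirrored part. The search placed other stretches there in whole or in part, with lower correlations, such as 0.542 at 303 to 2052 and 0.585 at 3610 to 5359. Both lay on chromosome 10, with 47.2% and 52.0% of their reads on the plus strand, against 79.7% for the chromosome 1 stretch. In the same orientation their best correlations were 0.522 and 0.494, against 0.299 for chromosome 1. Whether they hold mitochondrial sequence was not tested.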

How the data were processed

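Per the submitters' processing notes, Bowtie, HOMER and the build mm8 were used. The sources do not give versions, settings or the handling of repeated and multiple alignments. The authors deposited aligned reads (36 bases, BED intervals, at most 1 read per start and strand) and lists of windows. The score that the authors deposited beside each read never varied and was not used. Read 5-prime ends were counted by strand in 50 bp bins (Python 3.11.15, numpy 2.4.6, scipy 1.17.1), positions counted from 1. Ratios are shares of all reads, day 6 over day 0, with exact conditional binomial intervals, and shares have exact Clopper-Pearson intervals. The correction for filled positions took the negative logarithm of the open share per strand and bin. It was tested on simulated data with an even density of starts within each bin, as the correction assumes. That test does not cover positions filled unevenly within a bin. Gene names came from the RefSeq table of GRCm38.p6 (37 genes: 22 tRNA, 2 rRNA, 13 protein). Its coordinates placed the names but are not printed, and that its mitochondrial sequence is that of mm8 was not tested. The control region was taken as the bins after TrnP. Gene groups used bins lying wholly in genes of 1 group.

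Named bins were the 5 with most and the 5 with fewest reads, the 5 largest and smallest ratios among bins with at least 20 reads in one library, and the 5 highest and lowest plus-strand shares among bins with at least 20 reads in all. Members, lists and rules were chosen with earlier results of these data known. No mitochondrial sequence was used here.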

Additional observations from a re-analysis of the deposited data

How the results depend on the processing

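Alternatives concerning chromosome 1, the control region, single strands for the bin counts and the corrected plus-strand share were chosen after seeing the data. The ratio of 1.42 became 1.39 corrected for filled positions, 2.41 on the plus and 1.05 on the minus strand, and 1.33 without the mirrored stretch. It stayed within its interval with nuclear reads as scale, without 200 bp at either end, without the control region and with the chromosome 1 reads added. The 44 higher bins became 4 when scaled by mitochondrial reads, 72 corrected for filled positions, 133 at a ratio of 1.5, 14 in bins of 100 bp, 212 on the plus strand and 4 on the minus strand. They were 42 at a minimum of 20 reads and 38 both with bins moved by 25 bp and with read starts moved by 90 bp around the circle. The 1 lower bin became 0 in bins of 100 bp or moved by 25 bp, and 6 on the minus strand. The correlation of the profiles, 0.762, was 0.701 corrected, 0.819 in bins of 100 bp, 0.764 in moved bins, 0.826 with moved starts, 0.733 on the plus and 0.881 on the minus strand. The coefficients of variation, 35.5% and 27.8%, were 55.4% and 40.7% corrected, 33.4% and 25.2% in bins of 100 bp, 35.6% and 27.8% in moved bins, 42.3% and 42.5% with moved starts, 55.2% and 51.8% on the plus and 48.3% and 51.1% on the minus strand. The plus-strand shares of 27.6% and 46.5% became 21.3% and 44.3% corrected, 24.05% and 41.4% without the mirrored stretch, and 24.8% and 42.1% with the chromosome 1 reads added. Beyond what the construction of an alternative itself changes, the cause was not tested. No bin was empty in bins of 100 bp or moved by 25 bp. No paired analysis was possible because each day has 1 library. The cap of 1 read per position limits what the fullest bins can show.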
